A study of Mus musculus with 208 samples.

Results

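The acute transcriptional response of hippocampal neurons to lipopolysaccharide (LPS) was examined in adult mice that had been exposed to morphine before and after birth. The libraries were those of the MOR-LPS and MOR-SAL conditions of the hippocampus, and a library was left out when its total count was below 0.5 times the median total of the 55 hippocampal libraries, 9184251 counts. This left 26 of 28 libraries, out of 208 in the whole series: 15 MOR-LPS libraries (7 female, 8 male) and 11 MOR-SAL libraries (6 female, 5 male). The libraries left out were MOR-LPS 12-2, with 2026248 counts, and MOR-SAL 13-1, with 227025 counts. Of the 46403 genes in the count table, 22069 were tested, and the 14218 with a mean CPM (counts scaled to the library total) of at least 1 over the 26 libraries are described.

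The animals were C57BL/6NTac mice with no engineered allele. In the morphine groups the dam carried an osmotic minipump giving 10 mg/kg/day of morphine through gestation, the pups were moved at birth to drug-naive foster dams, and each pup was injected with 10 mg/kg morphine 2 times daily from postnatal day 1 to 14. SAL-LPS (n = 14) and SAL-SAL (n = 13) animals received saline on the same schedule. In adulthood LPS (2 mg/kg), a cell-wall component of Gram-negative bacteria, or saline was injected, and tissue was collected 2 h later, so MOR-LPS against MOR-SAL sets an adult LPS injection against an adult saline injection in animals that all carry the earlier morphine exposure. Each library came from about 5000 nuclei of 1 animal sorted for NeuN, a protein of neuronal nuclei, so glial and blood-borne cells should be depleted and cytoplasmic RNA is largely lost. Sample names give the litter and then the animal, as the study's sample sheet reads them, although its methods count more litters than these numbers allow. By these numbers the morphine litters were each of 1 sex here, and 8 litters gave both MOR-LPS and MOR-SAL animals, so litter and sex cannot be fully separated across the groups.

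LPS is sensed by Toll-like receptor 4 on macrophages, microglia and endothelium, and neurons receive most of the signal second-hand, through cytokines, prostaglandins and the adrenal glucocorticoid released by the stress axis. The hippocampus is rich in glucocorticoid receptors. On binding hormone these receptors move to the nucleus and bind glucocorticoid response elements, and genes such as Sgk1, Fkbp5, Per1 and Tsc22d3 are known targets. Nuclear factor kappa B (NF-kB) drives the cytokine arm and interferon-activated STAT proteins the antiviral arm, while immediate early genes such as Fos and Arc report recent neuronal firing.

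A few promoters are shown because the results below turn on their genes or, for Sgk1, because its promoter carries a full glucocorticoid response element. They are RefSeq sequences of build GRCm38.p6, 250 bases before to 50 bases after the gene start, read 5′ to 3′ on the gene's strand, with matched motifs in capitals. The full glucocorticoid response element searched was AGAACA, any 3 bases, then TGTTCT, found on either strand in 3 of 32851 RefSeq mouse promoters of this length (0.00913%). Its relaxed core ACANNNTGT was in 6.85% of them, the E-box CACGTG bound by clock proteins in 7.15%, and the D-box TTANNTAA in 6% of them. Any match to the full element also holds the relaxed core. The other motifs searched on both strands were AP-1 (TGANTCA, in 7.81% of the promoters), CRE (TGACGTCA, 1.79%), ISRE (GAAA, any 2 bases, GAAA, in 3.44%), kB (GGG, any 2 bases, TTTCC, in 1.63%) and HSE (GAA, TTC and GAA with any 2 bases between, in 0.603%).
Sgk1, chr10:21993640-21993939, plus strand: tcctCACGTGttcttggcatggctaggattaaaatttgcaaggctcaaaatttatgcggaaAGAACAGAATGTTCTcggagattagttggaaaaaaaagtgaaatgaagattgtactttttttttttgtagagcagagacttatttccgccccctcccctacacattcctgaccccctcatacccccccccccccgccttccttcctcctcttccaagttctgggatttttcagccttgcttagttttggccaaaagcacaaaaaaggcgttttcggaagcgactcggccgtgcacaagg
Arrdc2, chr8:70839671-70839970, minus strand: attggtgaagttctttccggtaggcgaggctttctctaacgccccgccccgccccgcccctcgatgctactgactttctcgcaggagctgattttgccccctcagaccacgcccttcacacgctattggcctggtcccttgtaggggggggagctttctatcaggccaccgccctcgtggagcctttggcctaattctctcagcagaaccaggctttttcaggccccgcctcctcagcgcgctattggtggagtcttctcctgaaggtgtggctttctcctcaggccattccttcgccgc
Pnpla7, chr2:24975783-24976082, plus strand: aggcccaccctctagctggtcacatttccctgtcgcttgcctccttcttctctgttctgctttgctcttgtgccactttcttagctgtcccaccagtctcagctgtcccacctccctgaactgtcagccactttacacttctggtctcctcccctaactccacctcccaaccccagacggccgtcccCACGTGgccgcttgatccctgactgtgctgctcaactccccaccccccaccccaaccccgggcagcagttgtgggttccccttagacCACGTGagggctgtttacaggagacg
Cck, chr9:121495645-121495944, minus strand: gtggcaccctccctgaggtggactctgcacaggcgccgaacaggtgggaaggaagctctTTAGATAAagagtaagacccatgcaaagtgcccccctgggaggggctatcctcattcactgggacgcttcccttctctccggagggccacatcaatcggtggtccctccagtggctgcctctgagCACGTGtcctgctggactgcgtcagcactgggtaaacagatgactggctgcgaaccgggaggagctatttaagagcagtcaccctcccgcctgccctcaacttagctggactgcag
The Sgk1 promoter shown, 1 of several for that gene, was the only one of the 19 glucocorticoid-list genes with a promoter in the table to hold the full element. The element starts 189 bases before the start used for this promoter, and an E-box starts at −246. The relaxed core was in promoters of 4 of the 19. A gene was counted if any of its promoters held the core, so this cannot be set beside the share per promoter above. The Pnpla7 promoter held E-boxes starting at −63 and +24, and the Cck promoter an E-box at −66 and a D-box at −191. None of the motifs searched was found in the Arrdc2 window. Promoters of 7 of the 11 genes called below were in the table, and those of Rab31, Lsm7, Rsph9 and Snhg20 held none of the motifs either. These matches are descriptions of letters in a window.

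Before the comparison, some libraries stood apart. Totals ran from 4636977 to 24071488 counts in MOR-LPS and from 6529594 to 16365430 in MOR-SAL. The sort was checked with marker genes. Rbfox3, which encodes NeuN, had a median of 1555 normalized CPM in MOR-LPS and 1268 in MOR-SAL, and the pyramidal and granule cell markers Slc17a7 and Prox1 were present in every library. However, MOR-LPS 7-1 and MOR-LPS 15-3, both female, held 3303 and 4008 CPM of 10 oligodendrocyte lineage markers, where the other MOR-LPS libraries held 233 to 788 CPM and the MOR-SAL libraries 197 to 906 CPM. The same animals had 1781 and 1717 CPM of astrocyte markers, against at most 968 CPM in any other MOR library, and 263 and 414 CPM of microglia markers, against at most 93.1 CPM, and the lowest neuron marker sums of the 26, 6071 and 5742 CPM. The astrocyte marker Gfap, the microglial marker P2ry12, the choroid plexus marker Kcnj13 and Cpne7, of the CA2 and CA3 list, were at 0 in every MOR library, these animals included, so their zeros are no check of the sort. In whole-library counts a larger number of glial nuclei and more RNA per glial nucleus cannot be told apart. Both animals received LPS, so the genes called higher are also given without them below, and so are other values where stated.

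**Figure D1:**
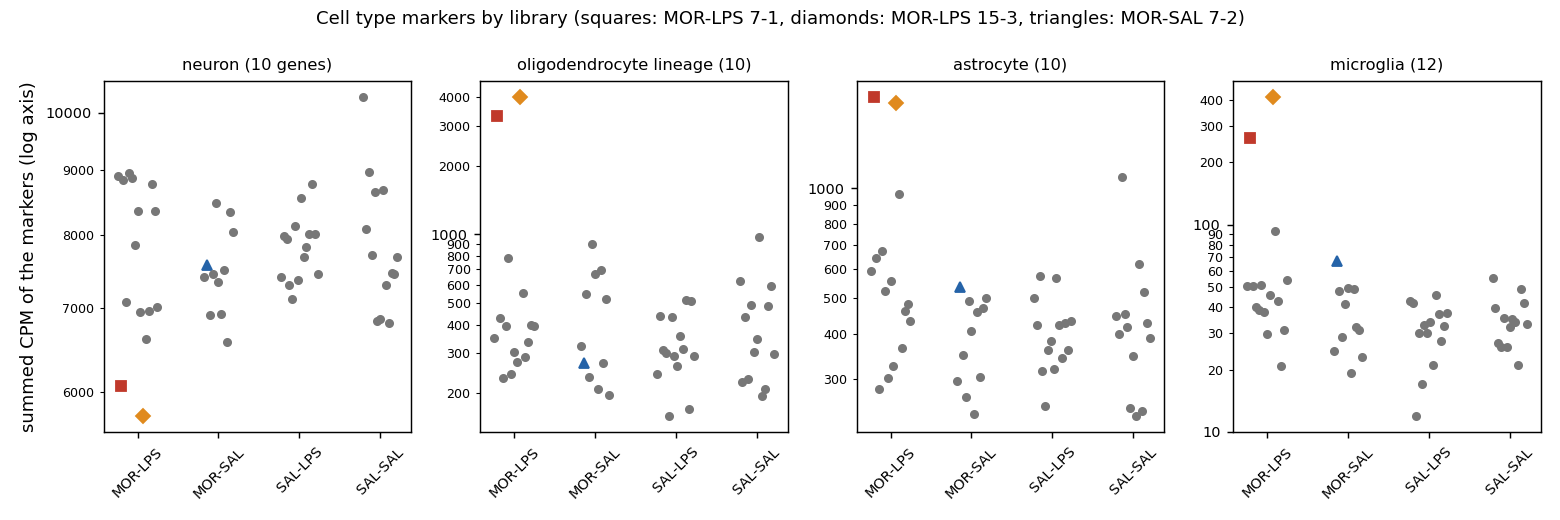
Summed CPM of neuron, oligodendrocyte lineage, astrocyte and microglia markers (log axis, 1 point per library) in the 4 hippocampal conditions. MOR-LPS 7-1 and 15-3 sit at 3303 and 4008 CPM of oligodendrocyte markers, above the other 13 MOR-LPS libraries and all MOR-SAL libraries.

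The labelled sex went against the sum of 4 Y-linked genes in 3 of the 26 MOR libraries. The library labelled female MOR-SAL 7-2 had 111 CPM, and the libraries labelled male MOR-LPS 17-1 and MOR-SAL 17-2 had 0 and 0.137 CPM. The male libraries MOR-LPS 14-4 and 17-3 had 59.9 and 53.9 CPM, where the remaining MOR males had between 119 and 181 CPM. In the SAL arm SAL-LPS 2-2, labelled female, had 127 CPM. It is left out as well where results are given without the sex-discordant libraries. MOR-SAL 7-2 also had the fewest detected genes of the 26 libraries, 13854. In addition, 5 pairs of MOR libraries from different litters were unusually alike, with median absolute log2 differences of 0.07 to 0.107 over the 3000 most abundant genes, against a median of 0.337 over all 1378 pairs. They were MOR-LPS 8-3 with 13-0, 6-2 with 13-0, and 15-1 with 16-4, and MOR-SAL 6-1 with 8-0 and 15-2 with 16-1. Each pair differed beyond sampling noise (the lowest chi-square per degree of freedom was 4.83), which does not show whether they are separate animals. They were kept as separate samples by their labels, and results with them summed, which leaves 12 MOR-LPS and 9 MOR-SAL samples, are given below.

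In hippocampal neurons of morphine-exposed mice, LPS was followed by few changes that passed the test. With an edgeR quasi-likelihood test and Benjamini-Hochberg adjustment over the 22069 genes tested, 11 of the 14218 described genes (0.0774%) had an adjusted p under 0.05, 6 higher (0.0422%) and 5 lower (0.0352%) in MOR-LPS. Rab31, Msr1, Neat1, Arrdc2, Pnpla7 and Cdk19 were higher, and Rsph9, Lsm7, Gm24187, Snhg20 and Cck were lower. At an unadjusted p under 0.05 there were 1385 genes (9.74%), 631 higher (4.44%) and 754 lower (5.30%). The median log2 fold change of the described genes was 0.02, and 0 described genes had MOR-LPS and MOR-SAL values that did not overlap. The call depended on the test: DESeq2 called 58 genes (0.408%), 29 in each direction, and all 11 were among them.

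**Figure D2:**
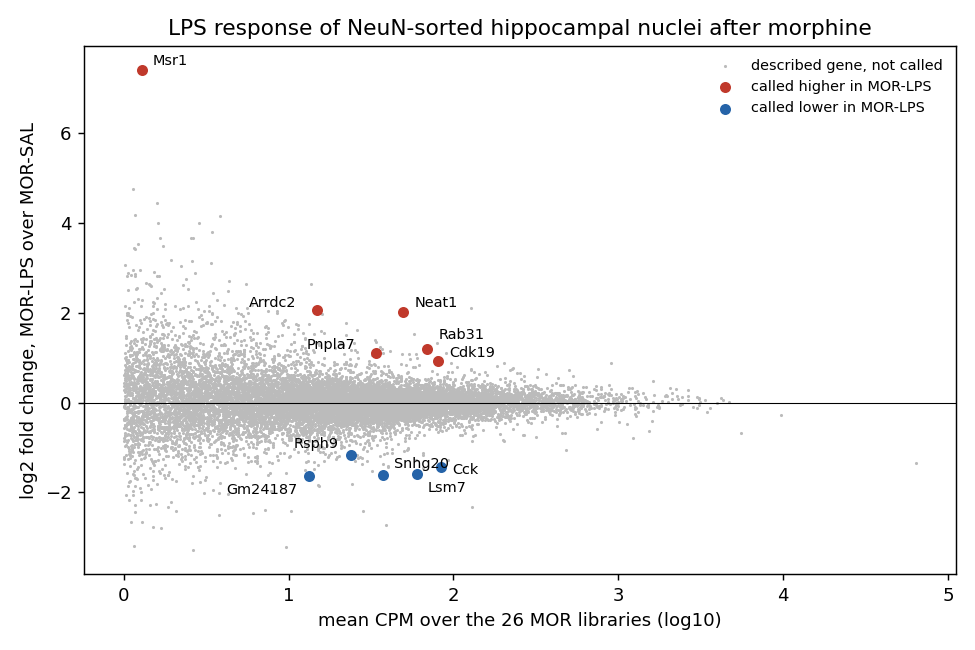
Log2 fold change of MOR-LPS over MOR-SAL against the mean CPM of each described gene (log10 axis), with the 6 genes called higher in red and the 5 called lower in blue. Most of the 14218 genes lie near 0, and Msr1, called from values near the lower limit of description, lies highest at 7.41.

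Of the higher genes, Rab31 (GRCm38 chr17:65651729-65772752, minus strand) encodes a small GTPase of endosomal trafficking. Its normalized CPM ran from 25.3 through a median of 56.8 to 273 in MOR-LPS and from 22.4 through 37.6 to 61.3 in MOR-SAL. The groups overlapped, but 14 of 15 MOR-LPS libraries lay above the MOR-SAL median, and the top values of 273 and 242 came from MOR-LPS 7-1 and 15-3. The log2 fold change was 1.19 ± 0.24 (SE, edgeR adjusted p = 0.0352), and 0.69 without those libraries (edgeR adjusted p = 0.0844). Rab31 was the only gene still called when litter entered the fit as a block (1 of 14218, 0.00703%, at 1.26, edgeR adjusted p = 0.0331).

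Cdk19 (chr10:40339564-40483818, plus strand) encodes a kinase of the Mediator complex. It ran from 56.0 through 85.8 to 239 normalized CPM in MOR-LPS and from 40.1 through 48.2 to 76.8 in MOR-SAL. All 15 MOR-LPS libraries lay above the MOR-SAL median, and the ranges overlapped between 56.0 and 76.8. The log2 fold change was 0.93 ± 0.21 (SE, edgeR adjusted p = 0.0442), and 0.56 without MOR-LPS 7-1 and 15-3 (edgeR adjusted p = 0.104). With the litter block it was 1.01 (edgeR adjusted p = 0.0783). The gene overlaps the antisense transcript Cdk19os, and since the counting strand is not given in the sources used here, reads of the pair cannot be told apart.

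Arrdc2 (chr8:70835129-70839720, minus strand), an alpha-arrestin gene and the only member of the glucocorticoid list to be called, ran from 3.09 through 10.5 to 91.7 normalized CPM in MOR-LPS and from 0.173 through 4.91 to 11.8 in MOR-SAL. MOR-LPS 15-3 and 7-1 held 91.7 and 84.0, and every other MOR-LPS library was below 15. Its log2 fold change was 2.06 ± 0.43 (SE, edgeR adjusted p = 0.0353). It was 1.05 without those libraries (edgeR adjusted p = 0.139) and 2.46 without the sex-discordant libraries (edgeR adjusted p = 0.0231). With the litter block it was 2.20 (edgeR adjusted p = 0.0783).

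Pnpla7 (chr2:24976033-25054057, plus strand), a lysophospholipase of the endoplasmic reticulum, ran from 13.3 through 31.4 to 112 normalized CPM in MOR-LPS and from 7.77 through 16.7 to 47.4 in MOR-SAL. The highest MOR-SAL value was that of 7-2, and 14 of 15 MOR-LPS libraries lay above the MOR-SAL median. The log2 fold change was 1.12 ± 0.25 (SE, edgeR adjusted p = 0.0442), 0.76 without MOR-LPS 7-1 and 15-3 (edgeR adjusted p = 0.101) and 1.48 without the sex-discordant libraries (edgeR adjusted p = 0.013). The litter block gave 1.30 (edgeR adjusted p = 0.0654).

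Neat1 (chr19:5824708-5845478, minus strand), the long non-coding RNA on which nuclear paraspeckles form, ran from 9.99 through 27.6 to 287 normalized CPM in MOR-LPS and from 6.82 through 15.7 to 22.2 in MOR-SAL. MOR-LPS 15-3, 16-2 and 7-1 stood at 287, 203 and 202, and the next library was at 57.0. A log2 fold change of 2.01 ± 0.41 (SE, edgeR adjusted p = 0.0352) was found, and 1.40 without MOR-LPS 7-1 and 15-3 (edgeR adjusted p = 0.0832). With the litter block it was 1.91 (edgeR adjusted p = 0.175).

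Msr1 (chr8:39581685-39642673, minus strand) encodes the class A scavenger receptor of macrophages and microglia. It had no count in any of the 11 MOR-SAL libraries and in 6 of 15 MOR-LPS libraries, and the others reached 13.1 normalized CPM in MOR-LPS 7-1 and 8.94 in 15-3. The next highest was 2.77, in MOR-LPS 8-3. With no count in MOR-SAL, Msr1 reached the level of description through MOR-LPS libraries alone. Pooled over the MOR-LPS libraries it was at 2.37 CPM, and at 0.571 CPM without MOR-LPS 7-1 and 15-3. On these pooled counts Msr1 was at least 83.0-fold higher in MOR-LPS when MOR-SAL is set at a floor of 3 counts over the group. It was at least 20.0-fold higher without MOR-LPS 7-1 and 15-3 (edgeR adjusted p = 0.0352 with and 0.0813 without them). These pooled folds leave out the spread between animals. The litter block gave an edgeR adjusted p of 0.0783. A gene of macrophages was thus measured in a neuronal sort, and the part of the glial RNA beside it was not tested.

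**Figure D3:**
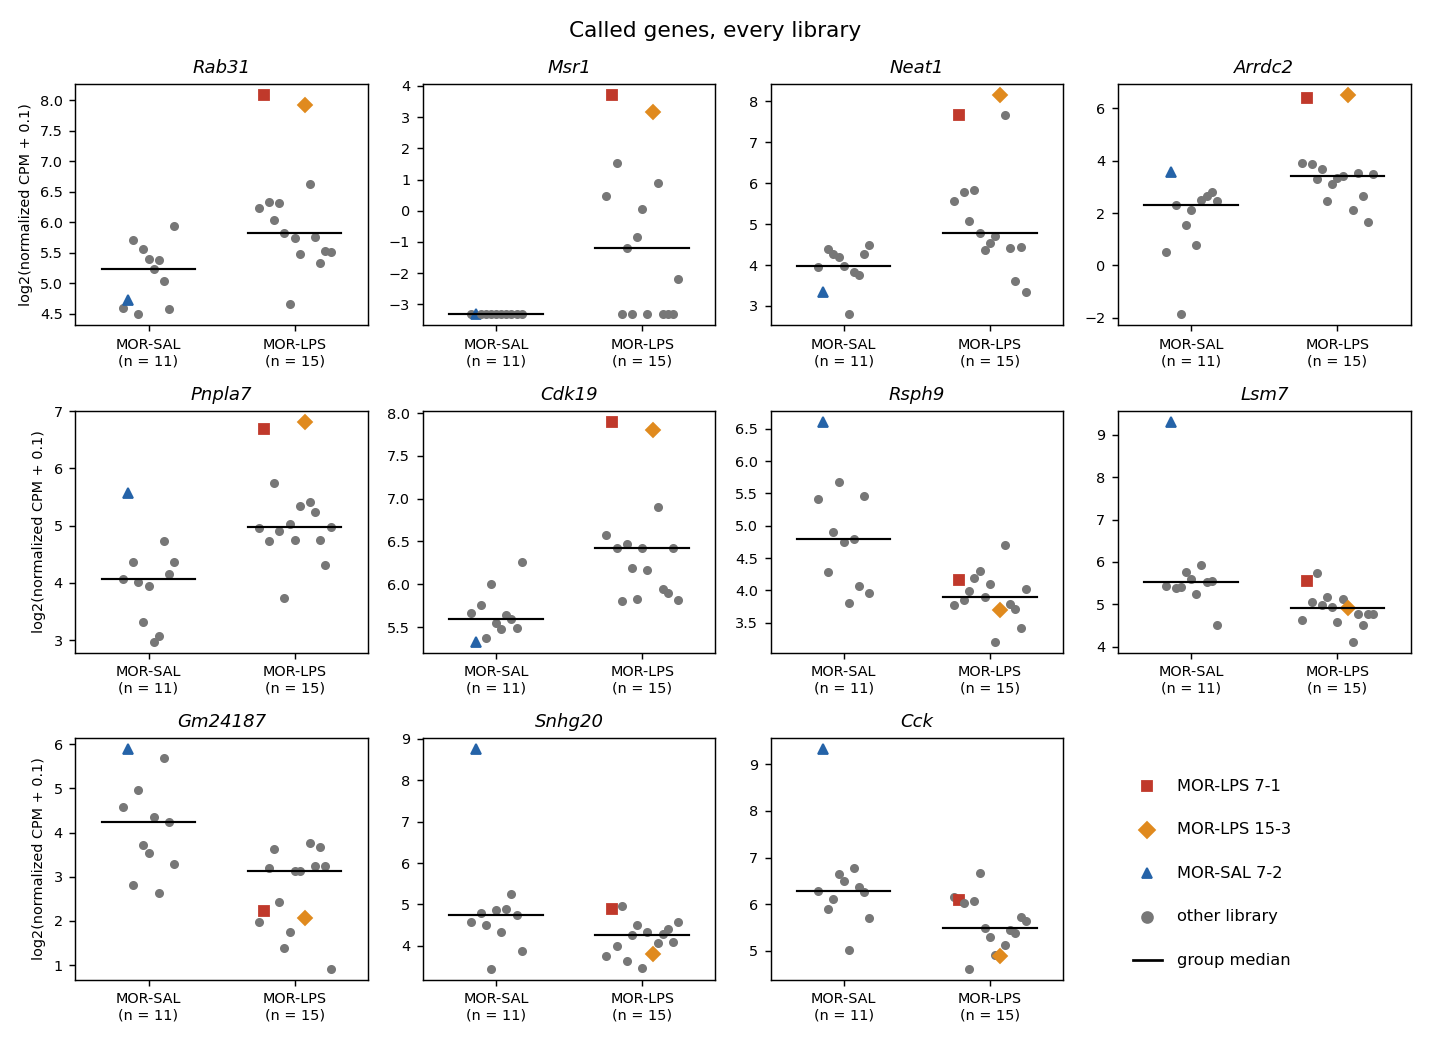
Log2 of normalized CPM + 0.1 of the 11 called genes in each of 11 MOR-SAL and 15 MOR-LPS libraries, with group medians as lines. MOR-LPS 7-1 and 15-3 hold the top MOR-LPS values of Rab31, Msr1, Arrdc2, Pnpla7 and Cdk19, and MOR-SAL 7-2 the top MOR-SAL value of all 5 genes called lower.

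The 5 genes called lower shared 1 feature: each had its highest MOR-SAL value in MOR-SAL 7-2. Lsm7 (chr10:80852821-80855209, minus strand), a subunit of the ring that binds U6 small nuclear RNA, ran from 22.6 through 46.0 to 635 normalized CPM in MOR-SAL and from 17.3 through 30.0 to 53.1 in MOR-LPS, and the second highest MOR-SAL value was 61.3. Its log2 fold change was −1.59 ± 0.33 (SE, edgeR adjusted p = 0.0353), and −0.53 without MOR-SAL 7-2 (edgeR adjusted p = 0.281). Snhg20 (chr11:117076008-117078955, plus strand), a non-coding host gene of small nucleolar RNA, ran from 10.8 through 26.8 to 431 normalized CPM in MOR-SAL, where the second highest value was 38.3, and from 11.0 through 19.2 to 31.3 in MOR-LPS. Its log2 fold change of −1.61 ± 0.37 (SE, edgeR adjusted p = 0.049) became −0.35 without it (edgeR adjusted p = 0.641).

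Cck (chr9:121489824-121495694, minus strand) encodes cholecystokinin, a neuropeptide of hippocampal basket interneurons and of some pyramidal cells. It ran from 32.3 through 77.7 to 644 normalized CPM in MOR-SAL, again with 7-2 at the top and 109 as the next value, and from 24.4 through 44.8 to 102 in MOR-LPS. Only 1 of 15 MOR-LPS libraries lay above the MOR-SAL median. Cck had a log2 fold change of −1.44 ± 0.33 (SE, edgeR adjusted p = 0.049), and −0.63 without MOR-SAL 7-2 (edgeR adjusted p = 0.239).

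Rsph9 and Gm24187 rested on that library less. Rsph9 (chr17:46122035-46144216, minus strand), a radial spoke protein of motile cilia, ran from 13.9 through 27.7 to 97.5 normalized CPM in MOR-SAL and from 9.14 through 14.8 to 25.9 in MOR-LPS, and all 15 MOR-LPS libraries lay below the MOR-SAL median. Its log2 fold change was −1.18 ± 0.23 (SE, edgeR adjusted p = 0.0352), and −0.89 without MOR-SAL 7-2 (edgeR adjusted p = 0.0696). Gm24187, annotated as a microRNA gene of 57 bases (chr13:9834469-9834525, minus strand), ran from 6.08 through 18.8 to 59.4 normalized CPM in MOR-SAL and from 1.78 through 8.67 to 13.4 in MOR-LPS. All 15 MOR-LPS libraries were below the MOR-SAL median here as well, with a log2 fold change of −1.64 ± 0.34 (SE, edgeR adjusted p = 0.0353), and −1.26 without MOR-SAL 7-2 (edgeR adjusted p = 0.0934). With the litter block the 5 lower genes had log2 fold changes of −0.61 to −1.68, and edgeR adjusted p values of 0.151 (Rsph9 and Gm24187) to 0.822 (Snhg20).

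**Figure D4:**
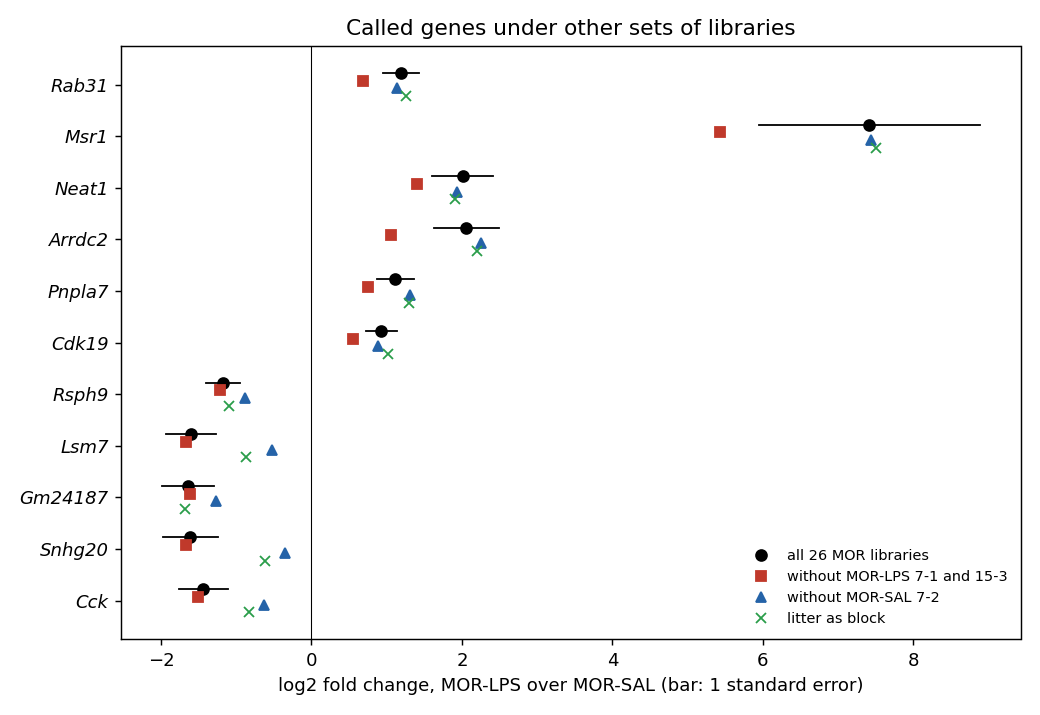
Log2 fold change of MOR-LPS over MOR-SAL for the 11 called genes with all 26 MOR libraries (circles, bar 1 SE), without MOR-LPS 7-1 and 15-3, without MOR-SAL 7-2, and with litter as a block. Every gene keeps its sign in all 4 settings. The higher genes shrink in the second, and Lsm7, Snhg20 and Cck in the third.

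The same libraries stood out among the genes at an unadjusted p under 0.05. Of the 631 higher genes, 35.5% had their highest MOR-LPS value in 15-3 and 19.5% in 7-1, against 11.4% and 11.6% of all described genes. Of the 754 lower genes, 71.4% had their highest MOR-SAL value in 7-2, against 23.4% of all described genes. Without MOR-LPS 7-1 and 15-3, 0 described genes were called by edgeR (0%), with 1308 at an unadjusted p under 0.05. Without MOR-SAL 7-2, 3 were called, namely Msr1, Arrdc2 and Pnpla7, with 814 at an unadjusted p under 0.05. Without the sex-discordant libraries 4 were called (0.0281%): Pnpla7 and Arrdc2 again, Osmr, the oncostatin M receptor subunit (edgeR adjusted p = 0.0382), and Mmp17, a membrane metalloproteinase, at −0.57 ± 0.11 (SE, edgeR adjusted p = 0.0231). Osmr had its highest values in MOR-LPS 7-1 and 15-3, and without these as well as the sex-discordant libraries its edgeR adjusted p was 0.17. Among the MOR-SAL libraries left Osmr had 1 count, in 15-4, and 0 in every other, so no fold is given. Mmp17 was named after its values were seen. With the close pairs summed 0 were called by edgeR, and 1053 had an unadjusted p under 0.05. Gene length moved with the direction too: the median exonic length was 5341 bases for the higher genes and 2872 for the lower, against 4491 for all described genes with a length. In the quintile of shortest genes 56 were higher and 315 lower, and in that of longest genes 168 were higher and 49 lower. With each library's trend on exonic length removed, edgeR called 4 genes, all among the 11 and all higher, and 0 lower genes (676 lower at an unadjusted p under 0.05). The part of the other properties in the result was not tested.

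The next genes in order of p missed the threshold. Among those with higher values was Uvssa, of transcription-coupled repair. It ran from 41.4 through 56.5 to 67.0 normalized CPM in MOR-LPS and from 18.1 through 38.9 to 47.6 in MOR-SAL, with 15 of 15 MOR-LPS libraries above the MOR-SAL median, and its log2 difference of 0.54 ± 0.14 (SE, edgeR adjusted p = 0.0581) was 0.51 without MOR-LPS 7-1 and 15-3. Ccdc50, a ubiquitin-binding protein, and Epb4.1l2, a membrane skeleton protein, were also above the MOR-SAL median in 15 of 15 libraries, at 0.51 (edgeR adjusted p = 0.0581) and 1.15 (edgeR adjusted p = 0.0547). Ppfibp2 (1.76), Tyw5 (0.91) and Clybl (0.54) completed the 12 with the smallest p. Without MOR-LPS 7-1 and 15-3 the values were 0.37 for Ccdc50, 0.86 for Epb4.1l2, 0.63 for Ppfibp2, 0.80 for Tyw5 and 0.46 for Clybl. On the lower side Tmsb4x, which encodes the actin-sequestering thymosin beta 4, had a log2 difference of −2.33 ± 0.55 (SE, edgeR adjusted p = 0.0547), but its MOR-SAL values were 1974 normalized CPM in 7-2 and at most 115 elsewhere, and the difference was −0.14 without that library. Ptms, Banf1, Ndufb7, Mrpl34, Phf5a and Stmn3 were the others, at −0.85 to −2.46, with edgeR adjusted p values of 0.0547. MOR-SAL 7-2 held the highest or second highest MOR-SAL value of each, and without it they lay at −0.72 (Ptms), −0.52 (Banf1), −0.67 (Ndufb7), −0.67 (Mrpl34), −0.73 (Phf5a) and −0.49 (Stmn3).

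Among the hormone and immune lists, the glucocorticoid-induced genes held the most members at an unadjusted p under 0.05. All 20 were described, 1 was called (Arrdc2), and 8 were higher and 1 lower at an unadjusted p under 0.05, beside 4.44% and 5.30% of all described genes. The median log2 difference of the list was 0.32, against 0.02 over all described genes, and 16 of 20 were positive. Hif3a, an inhibitory hypoxia factor subunit, had a value of 1.53 ± 0.43 (SE, edgeR adjusted p = 0.0746), and Sgk1, the kinase whose promoter holds the full response element, 0.55 ± 0.18 (SE, edgeR adjusted p = 0.119). Sgk1 ran from 107 through 147 to 288 normalized CPM in MOR-LPS and from 57.8 through 109 to 155 in MOR-SAL, with 14 of 15 MOR-LPS libraries above the MOR-SAL median, and its value was 0.41 without MOR-LPS 7-1 and 15-3. Cdkn1a (1.59), Fam107a (1.51), Tsc22d3 (0.77), Ddit4 (0.87) and Per1 (0.40) were the other higher members, and the metallothionein Mt1 was the lower one (−1.15). Fkbp5 and Zbtb16, classic targets, had values of 0.21 and 0.03. Without MOR-LPS 7-1 and 15-3 the count was 2 higher and 1 lower and the median 0.15, with Hif3a at 0.66, Cdkn1a at 0.51, Fam107a at 0.95, Tsc22d3 at 0.50, Ddit4 at 0.38, Per1 at 0.38 and Mt1 at −1.61. Leaving out the sex-discordant libraries too, Mt1 was at 0.20. With the litter block it was 7 higher and 0 lower, with a median of 0.59.

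Cytokine receptors were the next. Of 16 described of 18, 0 were called and 4 were higher at an unadjusted p under 0.05, beside 4.44% of all described genes, with a median of 0.38. Leaving out MOR-LPS 7-1 and 15-3, 1 was higher and the median was 0.26. Il6st, the gp130 signal subunit shared by interleukin 6 family receptors, ran from 23.6 through 35.3 to 51.9 normalized CPM in MOR-LPS and from 21.8 through 25.1 to 30.6 in MOR-SAL, a log2 difference of 0.46 ± 0.15 (SE, edgeR adjusted p = 0.125) that was 0.41 without MOR-LPS 7-1 and 15-3. Ifngr1, a chain of the interferon gamma receptor, ran from 3.03 through 6.12 to 24.8 in MOR-LPS and from 0 through 1.88 to 13.0 in MOR-SAL, with 15 of 15 MOR-LPS libraries above the MOR-SAL median (1.24 ± 0.46 SE; edgeR adjusted p = 0.166). Ifngr1 was at 0.84 without MOR-LPS 7-1 and 15-3. Osmr, at a MOR-SAL median of 0, had a fitted 3.04 and Tnfrsf1a, a tumour necrosis factor receptor, 2.00, and without those libraries 2.16 and 1.57. Their highest values were 13.1 and 8.94 normalized CPM in MOR-LPS and 2.49 and 2.06 in MOR-SAL. The level of description is a mean over both groups, so MOR-LPS weighed on their being described.

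The cytokine arm itself was little represented in these nuclei. Only 17 of 30 NF-kB and acute inflammatory genes reached the level of description. Il1b, Tnf, Il6, Cxcl1, Cxcl2, Ccl2, Icam1 and Socs3 did not. None was called by edgeR, 2 were higher at an unadjusted p under 0.05 (Osmr, counted in the receptor list too, and Stat3 at 0.48 ± 0.23 SE), and the median was 0.08. With MOR-LPS 7-1 and 15-3 left out, 0 were higher, Stat3 was at 0.34 and the median was −0.13. Nfkbia, which encodes the inhibitor that NF-kB induces, had a value of 0.13 ± 0.40 (SE, edgeR adjusted p = 0.959). Of 29 interferon response and antigen presentation genes 14 were described, with a median of 0.46 and 13 of 14 positive, beside 7460 of all 14218 described genes. Genes near the level of description can reach it through the group where they are high, so this count is partly set by that rule. Of these, 0 were called and 2 were higher at an unadjusted p under 0.05, beside 4.44% of all. Those were Nlrc5, the transactivator of major histocompatibility class I genes, at 2.91 ± 1.02 (SE, edgeR adjusted p = 0.146), and the class I gene H2-K1 at 2.53 ± 0.99 (SE, edgeR adjusted p = 0.198). H2-K1 ran from 0.158 through 1.15 to 24.4 normalized CPM in MOR-LPS, and from 0 through 0.129 to 2.98 in MOR-SAL, so these are values near the detection limit in most libraries. The second highest MOR-SAL value of H2-K1 was 1.03, and Nlrc5 had at most 0.837 in MOR-SAL. Their mean of at least 1 CPM thus came mainly from MOR-LPS. MOR-LPS 15-3 and 7-1 held the highest values of both genes, and without them Nlrc5 was at 2.12 and H2-K1 at 1.60, 1 gene of the list was higher at an unadjusted p under 0.05 and the median was 0.34.

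Among prostaglandin genes, 9 of 11 were described, and Ptgds, the prostaglandin D synthase of oligodendrocytes and meninges, had the largest difference. It ran from 4.14 through 45.6 to 1250 normalized CPM in MOR-LPS and from 6.68 through 21.4 to 102 in MOR-SAL, a log2 difference of 2.10 ± 0.56 (SE, edgeR adjusted p = 0.0647) that was 0.45 without MOR-LPS 7-1 and 15-3. Ptgs2, the inducible cyclooxygenase, had a value of 0.34 ± 0.37 (SE, edgeR adjusted p = 0.777).

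Genes of recent neuronal firing showed no shared direction with the sexes pooled. Of 22 described of 25 immediate early genes, 0 were called by edgeR or DESeq2 and 0 had an unadjusted p under 0.05 by edgeR (2 higher by DESeq2), with a median of 0.01 that took the opposite sign with DESeq2 size factors and without repeat-like and mitochondrial transcripts. Fos had 0.48 ± 0.48 (SE), Egr1 0.02 ± 0.35 (SE), and Arc, whose protein is recruited to active synapses, −0.0047 ± 0.43 (SE). Without MOR-LPS 7-1 and 15-3, 2 were higher at an unadjusted p under 0.05 and the median was 0.10. Of the described members, Junb (−3.43) and Arc (−3.30) were called for the female minus male difference given below. The next was Nr4a1, at −2.46 (edgeR adjusted p = 0.0634). Of 17 described of 19 clock genes, 0 were called and 2 were higher at an unadjusted p under 0.05, beside 4.44% of all described genes: Per1, and Rorb at 1.32 ± 0.47 (SE, edgeR adjusted p = 0.149), which was 1.37 without MOR-LPS 7-1 and 15-3. Of 12 described of 15 heat shock genes 3 were lower at an unadjusted p under 0.05, beside 5.30% of all, namely the cytosolic chaperones Hsp90ab1 (−1.06 ± 0.30 SE; edgeR adjusted p = 0.0768) and Hsp90aa1 (−0.70) and the mitochondrial co-chaperone Hspe1 (−1.28). MOR-SAL 7-2 held 2649 normalized CPM of Hsp90ab1, where no other MOR-SAL library passed 792, and the difference was −0.47 without it. It also held 67.1 of Hspe1, where the next MOR-SAL library had 13.9, and Hspe1 was at −0.45 without it. The highest MOR-SAL value of Hsp90aa1 was in 7-2 too, 649 beside a median of 174, and Hsp90aa1 was at −0.36 without the sex-discordant libraries. In the fit with the litter block 0 heat shock genes had an unadjusted p under 0.05.

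Receptor and neuropeptide genes bearing on the morphine history were examined as fixed lists. All 4 opioid receptor genes were described. Oprm1, which encodes the receptor morphine acts on, had a log2 difference of 0.32 ± 0.36 (SE, edgeR adjusted p = 0.791), Oprl1, of the nociceptin receptor, 0.39 ± 0.20 (SE, edgeR adjusted p = 0.369), and 0 of 7 described members were called or had an unadjusted p under 0.05. Of 17 described of 18 adenylyl cyclase and cyclic AMP phosphodiesterase genes, Pde4b alone was higher at an unadjusted p under 0.05 (0.65 ± 0.28 SE, edgeR adjusted p = 0.259), beside 4.44% of all described genes. Of 22 glutamate receptor subunits 1 was higher at that p, near the same 4.44%, the metabotropic receptor Grm3 (0.68 ± 0.30 SE, edgeR adjusted p = 0.264). Of 12 GABA-A subunits 1 was lower, beside 5.30% of all described genes. It was Gabra5, of the extrasynaptic receptors that are abundant in hippocampus (−0.87 ± 0.27 SE, edgeR adjusted p = 0.101). Pde4b was at 0.45 and Grm3 at 0.55 without MOR-LPS 7-1 and 15-3. MOR-SAL 7-2 held the top MOR-SAL value of Gabra5, which was at −0.73 without that library (edgeR adjusted p = 0.232). Nr3c1, the glucocorticoid receptor, had 0.32 ± 0.16 (SE, edgeR adjusted p = 0.348). In the lists of neurotrophins, the unfolded protein response, stress steroid regulators and cholesterol synthesis, 0 genes were called and 0 had an unadjusted p under 0.05 by edgeR. Among the 15 histone acetylation enzymes and readers Hdac1 alone had one, at −0.44 ± 0.18 (SE, edgeR adjusted p = 0.217), beside 5.30% of all described genes lower. Its top MOR-SAL value, 74.1 normalized CPM, was in 7-2, and the next was 44.7. Without 7-2 Hdac1 was at −0.32 (edgeR adjusted p = 0.504).

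Glial markers were high in MOR-LPS 7-1 and 15-3, beside the results above. With all 26 libraries the median log2 difference was 1.01 over 10 oligodendrocyte lineage markers, 0.84 over 9 astrocyte markers and 1.05 over 10 microglia markers, and none was called. At an unadjusted p under 0.05, 2, 5 and 3 of them were higher, beside 4.44% of all described genes. Without MOR-LPS 7-1 and 15-3 these medians were −0.17, 0.24 and 0.12, with 0, 1 and 0 markers higher at that p. Leaving out the sex-discordant libraries too, the medians were −0.19, 0.34 and 0.43. In the SAL arm they were −0.27, −0.03 and −0.14. The 10 neuron markers had a median of −0.11, with 4 positive (up to 0.16) and 3 lower at an unadjusted p under 0.05, beside 5.30% of all. Those with the smallest p were Thy1 at −0.72 ± 0.19 (SE, edgeR adjusted p = 0.0581) and Camk2a at −0.40 ± 0.14 (SE, edgeR adjusted p = 0.151). MOR-SAL 7-2 held the top MOR-SAL value of Thy1. Without that library Thy1 was at −0.53 (edgeR adjusted p = 0.181) and Camk2a at −0.37 (edgeR adjusted p = 0.264). Markers of neighbouring tissue also varied. The 8 striatal markers summed to between 50.4 and 838 CPM in MOR-LPS and between 60.7 and 244 CPM in MOR-SAL, and their median log2 difference was 1.07. Choroid plexus markers had a median of −0.89 over 4 described genes, 1 of them lower at an unadjusted p under 0.05, with MOR-SAL 13-3 at 502 CPM, and thalamus markers had −0.13. Hippocampal subfield lists had medians of −0.45 (dentate gyrus), −0.13 (CA1) and 0.06 (CA2 and CA3), and the interneuron list −0.11. Their part in the response was not tested.

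**Figure D5:**
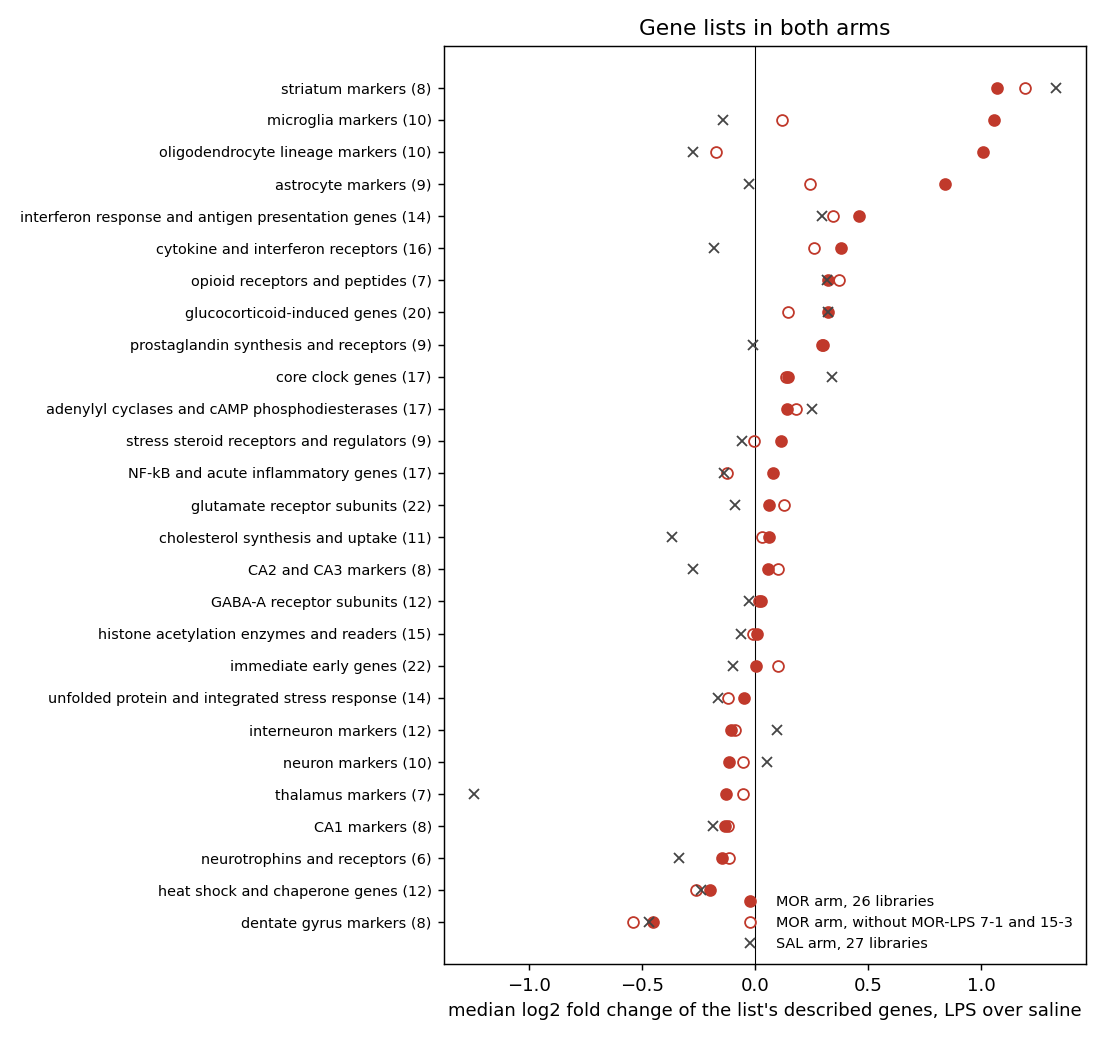
Median log2 fold change of LPS over saline for each gene list, with the number of described genes in brackets: MOR arm with 26 libraries (filled), MOR arm without MOR-LPS 7-1 and 15-3 (open), and SAL arm with 27 libraries (crosses). The 3 glial lists lie at 0.84 to 1.05 in the MOR arm and between −0.17 and 0.24 without those libraries.

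The SAL arm gives the response of animals with no morphine history on the same genes. There edgeR called 203 of the 14218 genes (1.43%), 104 higher (0.731%) and 99 lower (0.696%). A larger count in 1 arm does not show that the arms differ, so the difference of the responses was tested in the same fit, which shares the MOR libraries with the comparison above. It was called for 57 genes (0.401%), 24 with a higher value in the MOR arm (0.169%) and 33 with a lower one (0.232%). Of the 11 genes called in the MOR arm, 4 were among them: Rsph9, with a log2 fold change of −1.18 in the MOR arm and 0.19 in the SAL arm (edgeR adjusted p of the difference = 0.0163), Lsm7 with −1.59 and 0.46 (0.0156), Gm24187 with −1.64 and 0.19 (0.0242), and Snhg20 with −1.61 and 0.88 (0.0151). All 4 had their top MOR-SAL value in 7-2. Without the sex-discordant libraries, MOR-SAL 7-2 and SAL-LPS 2-2 included, the edgeR adjusted p of the difference was 0.0378 for Rsph9, 0.0591 for Lsm7, 0.204 for Gm24187 and 0.045 for Snhg20. None of the 6 genes called higher was among them. Pnpla7 and Msr1 were also called in the SAL arm, Pnpla7 at 0.90 (edgeR adjusted p = 0.0323) beside 1.12 and Msr1 at an edgeR adjusted p of 0.03. For Arrdc2 the values were 2.06 in the MOR arm and 0.43 in the SAL arm (edgeR adjusted p of the difference = 0.122), and for Cdk19 0.93 and 0.20 (0.18).

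The other genes with the smallest p for the difference were Rlbp1, Zfp949 and 2900055J20Rik. Rlbp1, a retinoid-binding protein, ran from 0 through 1.58 to 4.28 normalized CPM in MOR-LPS and from 0 through 0.519 to 1.78 in MOR-SAL, and its response was 1.85 in the MOR arm and −4.30 in the SAL arm (edgeR adjusted p of the difference = 0.0151). Rlbp1 was at 0 in 13 of 14 SAL-LPS libraries, so the fitted size is not a bound. Zfp949, a zinc finger gene, had −0.33 in the MOR arm and 0.58 in the SAL arm (0.0151), and 2900055J20Rik −1.03 and 0.58 (0.0156). MOR-SAL 7-2 held the top value of each of the latter pair among MOR-SAL libraries. With the litter block 0 genes were called for the difference by edgeR, with 1102 at an unadjusted p under 0.05, and DESeq2 called 13 (0.0914%).

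Stat3, the transcription factor that gp130 receptors activate, was called in the SAL arm (0.99, edgeR adjusted p = 0.0252), and its MOR value of 0.48 was not shown to differ from that (edgeR adjusted p of the difference = 0.539). Of the 17 described clock genes 3 were called higher in the SAL arm, beside 0.731% of all (Cry1, Cry2 and Hlf, at 0.77, 0.55 and 0.43). They had 0.18, −0.06 and −0.06 in the MOR arm, and the difference was called for none (edgeR adjusted p = 0.444, 0.142 and 0.142). The median of the glucocorticoid list was 0.32 in each arm, and in the MOR arm 0.15 without MOR-LPS 7-1 and 15-3 and 0.59 with the litter block. The difference between the arms was not tested for the list.

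The response of the morphine-exposed animals was also compared between the sexes, within the limits of the labels noted above. The female minus male difference was called for 26 described genes (0.183%), 12 positive (0.0844%) and 14 negative (0.0985%). With the close pairs summed edgeR called 0 (1279 at an unadjusted p under 0.05). Among the 26 was Junb, an AP-1 subunit. In males it ran from 22.7 through 51.4 to 110 normalized CPM after LPS (n = 8) and from 7.22 through 8.97 to 14.3 after saline (n = 5). In females it ran from 8.46 through 20.6 to 42.3 after LPS (n = 7) and from 3.89 through 34.7 to 81.8 after saline (n = 6). The log2 fold change was 2.65 in males (edgeR adjusted p = 0.0472) and −0.78 in females (edgeR adjusted p = 0.465), a difference of −3.43 ± 0.69 (SE, edgeR adjusted p = 0.0369). Its highest values, 110 and 106, were in the close pair MOR-LPS 8-3 and 13-0, and with close pairs summed the difference was −2.85 (edgeR adjusted p = 0.244). Arc, not called for the MOR response or for the difference between the arms, differed by −3.30 ± 0.72 (SE, edgeR adjusted p = 0.0395). With close pairs summed it differed by −2.95 (edgeR adjusted p = 0.247). Ppfibp2, a liprin, went the other way, at 2.88 in females and 0.07 in males, a difference of 2.81 ± 0.64 (SE, edgeR adjusted p = 0.0468) that was 3.36 with close pairs summed (edgeR adjusted p = 0.0974). Its female maximum of 162 normalized CPM came from MOR-LPS 7-1, and the difference was 1.21 without MOR-LPS 7-1 and 15-3 (edgeR adjusted p = 0.274).

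In females 10 genes (0.0703%) were called, among them Neat1 (2.90), Pnpla7 (1.59), Lsm7 (−2.06) and Cck (−2.04), and in males 3 (0.0211%): Nelfb, a subunit of the negative elongation factor, at 1.29, Junb, and Vipr2, a receptor for vasoactive intestinal peptide, at a fitted −7.79. Those counts come from 1 fit over both sexes. The top MOR-SAL values of Lsm7 and Cck, 635 and 644 normalized CPM, were in 7-2, labelled female with 111 CPM of Y-linked genes. The top MOR-LPS values of Neat1 and Pnpla7, 287 and 112 normalized CPM, were in the glia-rich 15-3. In fits to each sex alone edgeR called 0 genes in females, with 1813 at an unadjusted p under 0.05, and 11 in males, 4 higher and 7 lower, of which 1 was among the 11 called over both sexes. Without MOR-LPS 7-1 and 15-3, both female, 42 genes were called for the sex difference, and without the sex-discordant libraries 45. Without the latter the difference was −3.69 for Junb (edgeR adjusted p = 0.0117) and −3.42 for Arc (edgeR adjusted p = 0.0375). That of Ppfibp2 was 2.46 and not called (edgeR adjusted p = 0.096). Arc, Nelfb and Vipr2 were named after their values were seen.

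The same contrast in the other regions gave larger counts in striatum and hypothalamus and a smaller one in prefrontal cortex, from libraries normalized and tested separately: 2 described genes in prefrontal cortex (0.0140%), 226 in striatum (1.59%) and 1091 in hypothalamus (5.79%). The difference between regions was not tested, and the regions share animals, MOR-LPS 7-1 and 15-3 included, so they are not independent of one another. All 6 genes called higher in hippocampus had positive values in each region. Rab31 had 1.19 in hippocampus, 1.93 in prefrontal cortex, 1.63 in striatum and 1.70 in hypothalamus, where it was called (edgeR adjusted p = 0.00681). Arrdc2 had 2.06, 1.60, 1.90 and 2.92 in the same order (hypothalamus, edgeR adjusted p = 2.8e-05), Neat1 2.01, 2.28, 3.03 and 2.79, and Pnpla7 1.12, 1.88, 1.73 and 1.60, with Neat1 and Pnpla7 called in striatum as well as hypothalamus. Cdk19 was called in hypothalamus (1.39, edgeR adjusted p = 0.00179) and had 0.49 and 0.34 in prefrontal cortex and striatum. Of the lower genes, Rsph9 had 0.49, 0.31 and 0.40 in prefrontal cortex, striatum and hypothalamus and Gm24187 −1.01, −1.92 and 0.74, none called. Cck had 0.01, −0.14 and 1.52, the last called higher (edgeR adjusted p = 0.0404).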

How the data were processed

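Nuclei sorted for NeuN from 1 animal made each library (modified Smart-seq3, poly-A primed, paired 150-base reads). Per the labels, the authors trimmed reads with Trim Galore 0.6.7, aligned them to mm10 with STAR 2.7.10a, and counted them per gene. HTSeq 0.12.4 and DESeq2 1.40.2 are also named in the submitters' processing notes. The authors deposited raw counts per gene and CPM of the same libraries, the hippocampal ones without mitochondrially encoded genes. The raw counts were used here, and the hippocampal CPM in the limma alternatives on log2(CPM) only. The strand of counting is not given in the sources used here. The CPM in the text were computed here from the deposited counts, and values per library are scaled by TMM factors.

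Libraries under 0.5 times the median total were left out, and genes with a total above 10 were fitted in edgeR 4.0.16 (R 4.3.3; quasi-likelihood, 4 conditions plus labelled sex) with Benjamini-Hochberg adjustment over all genes tested. An adjusted p under 0.05 was a call, and genes with a mean of at least 1 CPM over the kept MOR libraries are described. SE are those of the fit. The difference of the MOR and SAL responses came from the same fit, and sexes were compared in a fit with sex by condition. Alternatives used DESeq2 1.42.0, limma 3.58.1 and other filters, scalings and samples. The fits were tested on simulated data.

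Named genes were the top 12 described genes by adjusted p on each side, called members of the lists, the 2 members of each list with the smallest p, Rbfox3 with defining markers, and the 6 with the smallest p for the difference. All other genes named by value, among them Fkbp5, Zbtb16, Nfkbia, Ptgs2, Fos, Egr1 and Oprm1, were chosen after their values were seen. The members and lists were chosen with earlier results of these data known. Litter numbers are the first part of the replicate labels, read as litters by the study's sample sheet, and were used to pair animals. The deviations of 17 same-litter MOR-LPS and MOR-SAL pairs in 8 litters correlated at −0.20 to 0.22 (median −0.02), and those of 148 pairs from different litters had a median of −0.01. Each library being 1 animal, p-values measure the spread between animals, and litter mates are not independent. Gene positions and lengths are those of a GRCm38 annotation, matched by symbol, for 98.4% of the described genes.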

Additional observations from a re-analysis of the deposited data

Results flagged for a closer look

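The LPS response differed between the MOR and SAL arms, by the edgeR test of the difference, for the following named genes, given as the MOR response minus the SAL response on the log2 scale. Values were lower in the MOR arm for Snhg20 (−2.50), Gm26917 (−2.14), Banf1 (−2.08), Lsm7 (−2.06), Gm24187 (−1.83), 2900055J20Rik (−1.60), Rsph9 (−1.37), Ptms (−1.32) and Zfp949 (−0.91), and higher for Rlbp1 (6.15), Csf1r (2.81) and Tyw5 (1.10). MOR-SAL 7-2 held the highest MOR-SAL value of those with lower values except Gm26917, and without it the MOR responses were −0.35 for Snhg20, −0.53 for Lsm7, −0.52 for Banf1, −0.40 for 2900055J20Rik, −0.72 for Ptms, −0.18 for Zfp949, −0.89 for Rsph9 and −1.26 for Gm24187. Gm26917 is a ribosomal-repeat-like transcript, and such transcripts took a median of 4.17% of counts in MOR-LPS, 8.16% in MOR-SAL, 10.2% in SAL-LPS and 6.33% in SAL-SAL libraries. Their part in its difference was not tested. Csf1r encodes the colony stimulating factor receptor of microglia. Its highest values were in MOR-LPS 15-3 and 7-1, and without them its difference was 1.80 (edgeR adjusted p = 0.207). That of Tyw5 was then 0.98 (edgeR adjusted p = 0.0874). With litter as a block none of these differences was called.

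The response of the MOR animals differed between females and males for Ppfibp2 (2.81, female minus male) and Junb (−3.43). Without the sex-discordant libraries 45 genes differed between the sexes, Junb among them but not Ppfibp2. Without MOR-LPS 7-1 and 15-3 there were 42, and with close libraries summed 0 (edgeR, 1279 at an unadjusted p under 0.05).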

How the results depend on the processing

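The MOR response had 11 called genes. It had 58 with DESeq2, 7 with filterByExpr, 0 with a mean of at least 1 CPM required before the fit, 1 with litter as a replicate block, 1 with limma-voom and a correlation within litters, 27 with all libraries kept, 29 without the sex term, 0 in females alone, 11 in males alone (1 of them among the 11 above), 0 in a fit of the MOR libraries alone, 4 without libraries against the labelled sex, 90 with the bias-adjusted fit (66 higher, 24 lower) and 0 with limma on log2(CPM + 1) or log2(CPM + 0.1). Chosen after seeing the data, 4 settings gave 0 without the glia-rich MOR-LPS 7-1 and 15-3, 0 also without libraries against the labelled sex, 0 with close libraries summed, and 4 (4 higher, 0 lower) with the exonic length trend removed. At an unadjusted p under 0.05 the settings that called 0 had 1405, 1813, 1622, 1637, 1566, 1308, 756 and 1053 genes, in the order given. Leaving out 1 library gave 0 to 57 calls, with 0 without MOR-LPS 6-2, 7-1, 8-3 or 15-3 or MOR-SAL 6-1 (1224 to 1444 genes at an unadjusted p under 0.05) and 57 without MOR-SAL 18-0, and leaving out 1 litter gave 0 (litter 6, 7, 8 or 15) to 42 (litter 18). The SAL response, with 203 calls, had 49 with filterByExpr, 41 with the mean CPM filter, 57 with the litter block, 100 with limma-voom, 119 with all libraries kept, 0 in a fit to females (903 genes had an unadjusted p under 0.05), 70 in males alone, 422 with the bias-adjusted fit and 93 with close libraries summed. The difference, with 57 calls, had 13 with DESeq2, 0 with filterByExpr (1198 at an unadjusted p under 0.05), 0 with the mean CPM filter (1203), 0 with the litter block (1102), 1 with limma-voom, 31 with all libraries kept, 1 in females, 4 in males, 19 without libraries against the labelled sex, 19 with the bias-adjusted fit, 16 without those and the glia-rich libraries, and 17 with close libraries summed. It had 32 to 77 with 1 library and 28 to 77 with 1 litter left out. Scaling to library size alone moved its median over all described genes from 0.02 to 0.18 and its split from 24 higher and 33 lower to 66 and 8, and that of the MOR response from 6 and 5 to 8 and 2. The sex difference, with 26 calls, had 238 with DESeq2, 45 without libraries against the labelled sex, 42 without the glia-rich libraries and 0 with close libraries summed (1279 at an unadjusted p under 0.05). DESeq2 called 33 genes in prefrontal cortex and 592 in striatum. The cause of these changes was not tested. No named result changed sign while called.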
